A study of Mus musculus with 6 samples.

Results

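The genes described here were 37 genes of cholesterol and fatty acid metabolism, grouped around the sterol regulatory element-binding proteins (SREBPs). Whether SREBPs controlled each of the genes in these cells was not tested. They were taken by gene symbol from a table of 19730 rows of RNA sequencing values, and each of the 37 symbols matched exactly 1 row. By role they were 6 enzymes of the isoprenoid steps, 10 enzymes of the squalene and sterol steps, 5 SREBP regulators, 5 genes of sterol uptake, transport and storage, 2 liver X receptors (LXRs) that drive sterol efflux, and 9 enzymes of fatty acid synthesis.

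The study asked how transforming growth factor-β1 (TGF-β1), a cytokine that drives kidney scarring, alters gene expression in mesangial cells, which support the capillaries of the glomerulus and can contract. Primary cells from mouse, at passages 3 to 6, were kept in a high-glucose medium (25.5 mM glucose, 20% foetal bovine serum), and 3 libraries came from cells given TGF-β1 at 10 ng/ml for 72 hours and 3 from control cells. Both groups shared the glucose and serum, no genotype was altered, and no mouse strain, age or sex was given. The libraries of each group were triplicates whose origin in separate cultures or animals was not given, so the p-values measure the spread between these samples, which may be technical. Serum supplies lipoprotein cholesterol to both groups, and its lipid content was not given.

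SREBPs are made as membrane proteins of the endoplasmic reticulum, where SCAP escorts them to the Golgi for cleavage when sterols are scarce and the INSIG proteins hold SCAP back when sterols are plentiful. The released fragment enters the nucleus and activates genes of cholesterol synthesis and uptake, mainly through SREBP-2, and of fatty acid synthesis, mainly through SREBP-1. The LXRs act on the other side of the balance: oxidised sterols activate them, and they raise genes of sterol export and lower lipoprotein uptake.

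The values were FPKM, counts of sequenced fragments scaled to the length of the transcript in kilobases and to the mapped fragments of the library. From the spacing of low values, the 6 libraries were estimated at 10.12 to 11.04 M fragments each, for an assumed fragment of 200 bases, so that 1 fragment in a transcript of 2 kilobases was worth 0.0503 to 0.0549 FPKM. Of 5 mesangial and pericyte markers, Acta2 rose from a mean of 997 to 3887 FPKM (limma adjusted p = 8.64e-05), Pdgfrb fell from 37.5 to 29.2 FPKM (limma adjusted p = 0.0396, called in 9 of 17 alternative settings), Gata3 was at 1.76 and 1.03 FPKM and did not pass, and Itga8 and Des had mean FPKM under 1. Their sum was 955 to 1135 FPKM in control and 3616 to 4299 FPKM in TGF-β1-treated libraries, mostly Acta2. The summed FPKM of 4 endothelial markers did not exceed 0.162 in any library, and those of 2 adipocyte and 1 hepatocyte marker were at most 0.593 and 0.0886 in control libraries and 0 in the TGF-β1-treated ones. The sum of 3 tubular markers was 10.4 to 14.2 FPKM in control and 0.411 to 0.524 FPKM in TGF-β1-treated libraries, with Aqp1 at means of 10.4 and 0.169 FPKM. The sum of 3 leukocyte markers was 8.19 to 9.58 FPKM against 2.26 to 3.24 FPKM, with Csf1r at means of 6.27 and 0.411 FPKM, Cd68 at 2.79 and 2.22 FPKM and Ptprc at 0 and 0.0289 FPKM, and that of 4 podocyte markers 13.8 to 15.4 FPKM against 8.51 to 10.1 FPKM. The part of these markers in the results below was not tested. Of the 37 genes, 9 overlap an annotated gene on the opposite strand (Ggps1, Fdft1, Lss, Srebf1, Scap, Npc1, Nr1h3, Acss2 and Acaca), and as strand use is not given in the sources used here, reads of such partners cannot be told apart. On the same strand, 5 of the 37 overlap an annotated gene (Fdps, Tm7sf2, Srebf2, Scd2 and Nr1h3).

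Promoter sequences are shown for 5 genes on which the results turn: Idi1 and Cyp51 of sterol synthesis, the regulators Srebf2 and Insig1, and Mylip, which changed in the opposite direction. Each is the 150 bases that precede the RefSeq transcription start in build GRCm38.p6, 5′ to 3′ on the strand of the gene, with capitals marking CCAAT (bound by NF-Y), GGGCGG (bound by SP1-like factors) and ATCACNNCA on either strand, so that ATTGG and CCGCCC are the reverse strand of the first and second.
Idi1, chr13:8885456-8885605 (+ strand): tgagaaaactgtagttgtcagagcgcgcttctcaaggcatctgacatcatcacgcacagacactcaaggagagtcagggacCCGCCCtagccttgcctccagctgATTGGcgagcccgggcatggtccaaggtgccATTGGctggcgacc
Cyp51, chr5:4104698-4104847 (- strand): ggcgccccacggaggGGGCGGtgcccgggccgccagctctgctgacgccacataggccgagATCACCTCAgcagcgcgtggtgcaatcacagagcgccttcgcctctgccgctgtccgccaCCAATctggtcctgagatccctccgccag
Srebf2, chr15:82147119-82147268 (+ strand): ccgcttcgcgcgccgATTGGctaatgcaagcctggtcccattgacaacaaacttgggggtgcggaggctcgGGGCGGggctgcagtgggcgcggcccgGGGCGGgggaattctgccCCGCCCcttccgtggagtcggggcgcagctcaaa
Insig1, chr5:28071262-28071411 (+ strand): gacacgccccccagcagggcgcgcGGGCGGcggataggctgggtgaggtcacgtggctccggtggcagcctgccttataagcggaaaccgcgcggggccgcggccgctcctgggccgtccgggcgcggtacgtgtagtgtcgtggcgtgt
Mylip, chr13:45389592-45389741 (+ strand): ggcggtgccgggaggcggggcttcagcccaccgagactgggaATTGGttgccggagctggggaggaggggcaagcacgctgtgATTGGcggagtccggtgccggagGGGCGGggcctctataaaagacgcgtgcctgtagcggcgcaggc

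NF-Y and SP1 are known to bind beside SREBPs at sterol-regulated promoters. RefSeq windows, from 250 bases before to 50 bases after the start, were at hand for 29 of the 37 genes, and Fdps, Fdft1, Sqle, Stard4, Npc1, Scd1, Scd2 and Fads1 had none. CCAAT stood on either strand in a window of 22 of the 29 genes (75.86%), against 41.06% of 27025 genes with such windows. GGGCGG stood in 22 of the 29 (75.86%), against 38.2% of all genes. Both were in all 8 windowed genes of the squalene and sterol steps, in Tm7sf2 as well as in Cyp51, and in neither LXR gene. In Idi1 the reverse-strand CCAAT began 45 and 14 bases before the start, and in Cyp51 the forward one began 29 bases before it. The sterol regulatory element core TCACNCCAC was in 0 of the 29, against 1.44% of all genes. The looser spellings, chosen after that result was seen, were ATCACNNCA in 2 genes, Cyp51 and Srebf2 (6.9% against 3.19%), CACNCCAC in 2 genes, Acat2 and Insig1 (6.9% against 7.12%), and TCACNNCA, which ATCACNNCA contains, in 8 genes (27.59% against 15.66%). Some matches in the windows do not lie within the 150 bases shown, among them ATCACNNCA in Srebf2 and CCAAT in Insig1. A match is a run of letters in this window and not a binding site, and a window without one says only that the letters are not there. The comparison took all genes with windows, whether or not expressed here, and was not matched to the tested rows.

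Genes of cholesterol and fatty acid synthesis were predominantly higher in the TGF-β1-treated libraries. Of the 37 genes, 36 had a mean FPKM of at least 1 and were tested, and 27 of these were upregulated, 1 was downregulated and 8 did not pass the threshold, in limma's moderated test at a Benjamini-Hochberg adjusted p under 0.05. Across all 11898 rows tested, 24.5% were upregulated and 23.6% downregulated. Upregulation with a log2 change of at least 1, on the scale of FPKM + 1, was found for 17 of the 36 genes, where 6.56% of all rows showed it. For 29 of the 36, all TGF-β1-treated libraries lay above all control libraries, where 29.9% of all rows did. The median log2 change of the 36 genes was 0.93 and that of all tested rows was -0.02. In bulk samples, fewer cells of a type and less RNA per cell cannot be told apart. When the libraries were rescaled to the sum of protein-coding rows, the median of all rows moved to -0.19, with 2015 rows upregulated and 3927 downregulated in place of 2911 and 2810, and 24 of the 36 genes stayed upregulated.

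**Figure D1:**
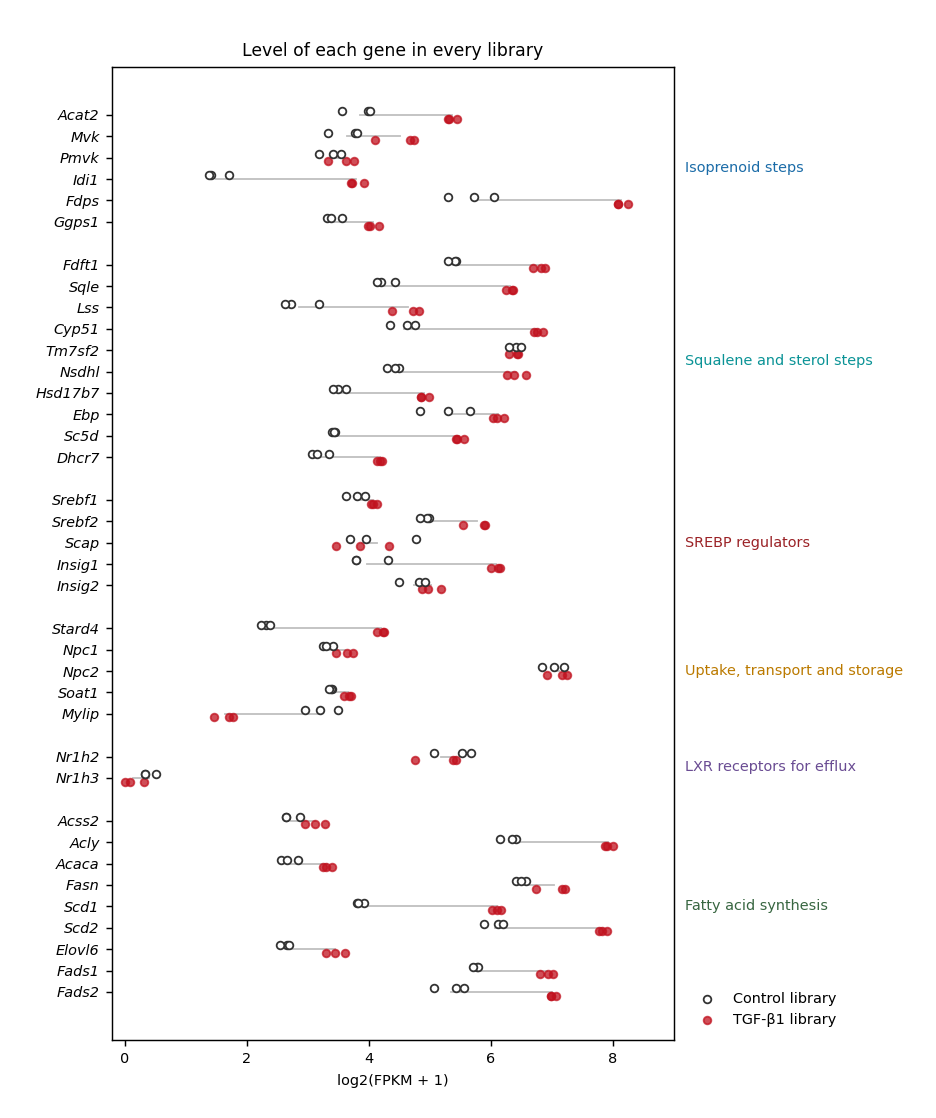
Level of the 37 genes in each of the 6 libraries, as log2(FPKM + 1) on the horizontal axis, with open circles for the 3 control and filled circles for the 3 TGF-β1-treated libraries, and a line joining the group means. Most filled circles of the synthesis genes lie right of the open ones, Mylip lies left, and Tm7sf2 overlaps.

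Most enzymes of the isoprenoid steps, which turn acetyl-CoA into farnesyl and geranylgeranyl diphosphate, were upregulated: 5 of 6 passed the test, and the median log2 change of the 6 was 1.18. Fdps, the synthase of farnesyl diphosphate (chromosome 3, 88897514 to 88905881, mm9), measured 65.7, 51.9 and 38.3 FPKM in control libraries 1 to 3 and 271, 303 and 269 FPKM in TGF-β1-treated libraries 1 to 3. The lowest treated value was above the highest control value, and the ratio of the means was 5.41 (log2 change 2.44, SE 0.19, limma adjusted p = 0.000193). Its change exceeded that of 99% of tested rows.

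Idi1, the isomerase of isopentenyl diphosphate (chromosome 13, 8884852 to 8891641), measured 1.66, 1.596 and 2.26 FPKM in control and 12.1, 12.2 and 14.2 FPKM in TGF-β1-treated libraries. The groups were far apart relative to their spread, with a 6.98-fold ratio of means (log2 change 2.29, SE 0.13, limma adjusted p = 5.29e-05), the highest ratio of any of the upregulated genes on the linear scale. Acat2, the cytosolic thiolase that joins acetyl-CoA units (chromosome 17, 13135756 to 13153613), measured 14.8, 15.3 and 10.9 FPKM in control and 39.0, 42.7 and 38.5 FPKM in treated libraries, without overlap (log2 change 1.498, SE 0.14, limma adjusted p = 0.000335).

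Ggps1, the synthase of geranylgeranyl diphosphate used in protein prenylation, rose by a smaller log2 change of 0.64 (limma adjusted p = 0.00256), on a locus that overlaps Arid4b on the opposite strand. Mvk, mevalonate kinase, had a log2 change of 0.87 with limma adjusted p = 0.0167. That call was lost without control replicate 2, TGF-β1 replicate 1 or TGF-β1 replicate 3, with adjusted p of 0.0519, 0.06 and 0.057. Pmvk, the kinase of the next step, measured 9.67, 8.10 and 10.6 FPKM in control and 9.08, 12.5 and 11.4 FPKM in treated libraries. Its groups overlapped and it did not pass the test (log2 change 0.19, 95% interval -0.16 to 0.55, limma adjusted p = 0.321).

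The squalene and sterol steps, which build the sterol rings and trim them to cholesterol, were upregulated for 9 of 10 enzymes, with a median log2 change of 1.602. Cyp51, the lanosterol demethylase (chromosome 5, 4081145 to 4104746), measured 23.7, 19.4 and 25.97 FPKM in control and 107, 115 and 103 FPKM in TGF-β1-treated libraries. The ratio of means was 4.71 (log2 change 2.20, SE 0.12, limma adjusted p = 5.07e-05), with no overlap.

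Sqle, squalene epoxidase and a rate-limiting enzyme of the sterol branch (chromosome 15, 59146632 to 59162747), measured 20.5, 17.4 and 16.6 FPKM in control and 80.1, 81.3 and 75.3 FPKM in treated libraries. The 3 treated libraries lay within a narrow range well above the controls (log2 change 2.06, SE 0.10, limma adjusted p = 3.13e-05). Sc5d, the sterol C5 desaturase (chromosome 9, 42062260 to 42072383), measured 9.87, 9.58 and 9.80 FPKM in control and 41.9, 42.7 and 46.5 FPKM in treated libraries. Its control libraries had an SD of 0.152 FPKM (n = 3), and its log2 change was 2.05 (SE 0.07, limma adjusted p = 1.31e-05).

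Nsdhl, of the demethylation complex, and Lss, the cyclase that makes lanosterol, followed with log2 changes of 1.997 and 1.79, then Fdft1, the squalene synthase, with 1.41 and Hsd17b7, a sterol ketoreductase, with 1.39. Dhcr7, which catalyses a final reduction to cholesterol, changed by 0.99, and Ebp, the sterol isomerase, by 0.84. Of these, Ebp alone had a call that turned on 1 library: its limma adjusted p was 0.0159 with all libraries and 0.05 without TGF-β1 replicate 2. The rows of Lss and Dhcr7 name non-coding transcripts of 352 and 514 bases, and those of Mvk and Sqle name retained-intron transcripts, and whether such a row holds reads of the whole gene is not given in the sources used here.

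Tm7sf2, a sterol C14 reductase, was the exception among the ring-processing enzymes. Its locus overlaps 1110014N23Rik on the same strand, and whether its row holds reads of that gene was not tested. Tm7sf2 measured 84.1, 89.5 and 77.8 FPKM in control and 85.02, 78.1 and 85.7 FPKM in TGF-β1-treated libraries. The groups overlapped, and the log2 change was -0.01 (95% interval -0.22 to 0.19, limma adjusted p = 0.91). The same reaction is also carried out by Lbr, the lamin B receptor, a gene outside the 37 that was picked here after its value was seen: it rose from a mean of 3.91 to 5.75 FPKM (log2 change 0.46, limma adjusted p = 0.0152, and 0.0928 from replicates 1 and 3 alone).

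**Figure D2:**
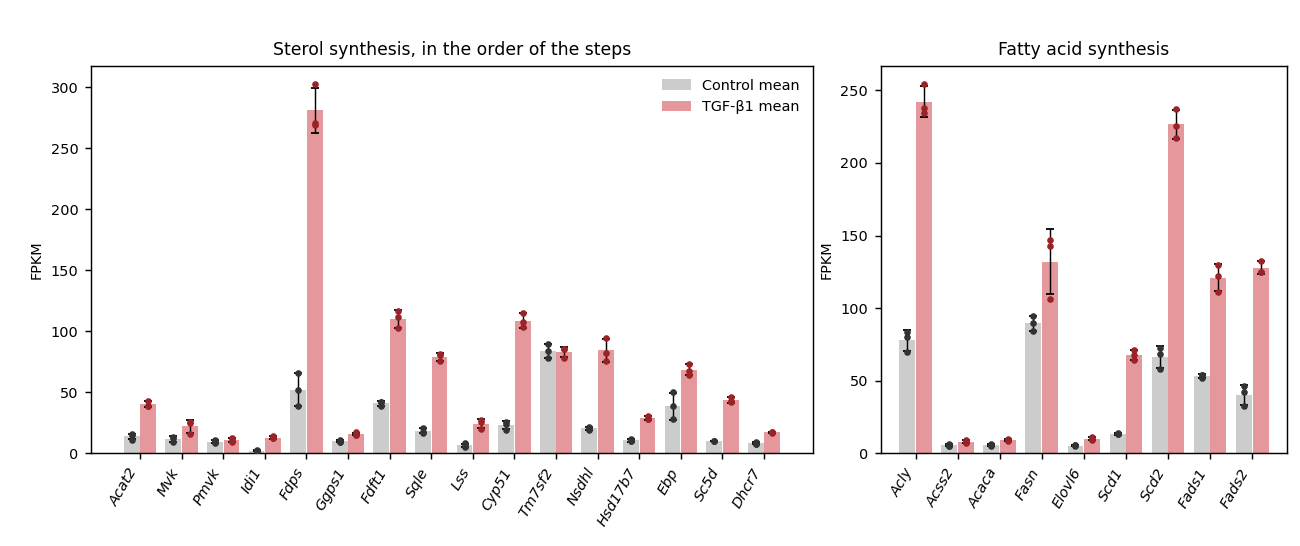
FPKM of the sterol synthesis enzymes in the order of their steps (left) and of the fatty acid synthesis enzymes (right), as group means with SD error bars (n = 3) and a point for each library, control in grey and TGF-β1 in red. Fdps reached the highest treated level of the sterol enzymes plotted, and the Tm7sf2 bars are level.

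Among the 5 regulators, 2 were upregulated and 3 did not pass the test. As 24.5% of all tested rows were upregulated, this count is no result about the group. Insig1, which retains SCAP in the endoplasmic reticulum and is itself an SREBP target (chromosome 5, 28397952 to 28405201), measured 19.0, 12.8 and 12.8 FPKM in control and 70.1, 68.1 and 62.8 FPKM in treated libraries. The groups lay apart by a ratio of means of 4.51 (log2 change 2.12, SE 0.16, limma adjusted p = 0.000161). Srebf2, which encodes SREBP-2 (chromosome 15, 81977696 to 82035806), measured 30.7, 29.9 and 27.8 FPKM in control and 58.4, 45.5 and 59.0 FPKM in treated libraries. All treated values were above the controls, with TGF-β1 replicate 2 the lowest (log2 change 0.85, SE 0.12, limma adjusted p = 0.00188).

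Srebf1, which encodes SREBP-1 (chromosome 11, 60012591 to 60036083), measured 13.1, 11.4 and 14.4 FPKM in control and 16.5, 15.7 and 15.4 FPKM in treated libraries. The groups did not overlap, yet the difference missed the threshold (log2 change 0.28, 95% interval 0.04 to 0.53, limma adjusted p = 0.0592), and it passed without control replicate 3 (log2 change 0.36, adjusted p = 0.0309). Insig2, the INSIG paralog, measured 27.3, 29.4 and 21.5 FPKM in control and 30.5, 35.4 and 28.3 FPKM in treated libraries. Its groups overlapped (log2 change 0.27, 95% interval -0.08 to 0.61, limma adjusted p = 0.168). Scap, the SREBP escort, measured 11.9, 14.5 and 26.3 FPKM in control and 19.2, 10.0 and 13.5 FPKM in treated libraries. The libraries of each group were widely scattered, so that the 95% interval of the log2 change ran from -1.07 to 0.56 (limma adjusted p = 0.562), on a row that names an incomplete transcript of 491 bases.

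In every library, paralog ratios compared members of a pair with any scaling between libraries largely removed. The log2 ratio of Insig1 to Insig2 was -0.50, -1.13 and -0.70 in control and 1.17, 0.92 and 1.12 in TGF-β1-treated libraries. The order of the pair thus turned in all 3 treated libraries, and the difference of the ratio was 1.85. The log2 ratio of Srebf1 to Srebf2 was -1.17, -1.32 and -0.90 in control and -1.76, -1.47 and -1.87 in treated libraries, a difference of -0.57. The exact two-sided permutation test gave p = 0.1 for each of the 3 pairs tested (the third is Scd1 to Scd2, below), which is the smallest p that 3 against 3 libraries allow, and 0.1 after Benjamini-Hochberg adjustment, so the design cannot reach the threshold.

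**Figure D3:**
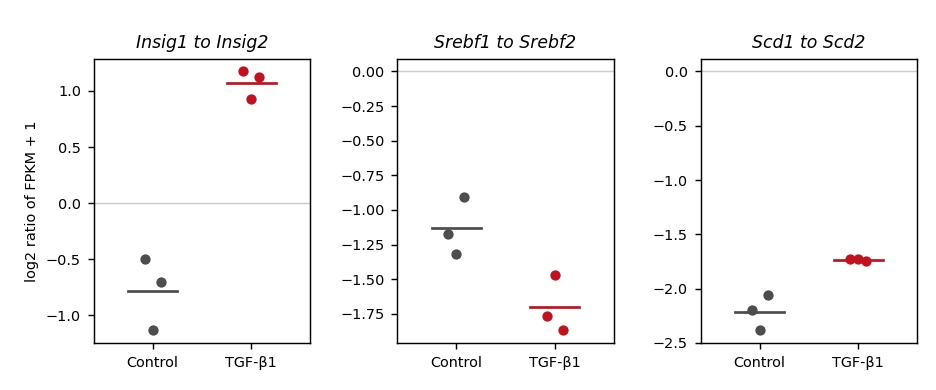
The log2 ratio of FPKM + 1 between paralogs in each library (points) with the group mean (line), for Insig1 to Insig2, Srebf1 to Srebf2 and Scd1 to Scd2; each panel has its own vertical scale. The Insig1 to Insig2 ratio is below 0 in the 3 control and above 0 in the 3 TGF-β1-treated libraries.

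Of the 5 genes of sterol uptake, transport and storage, 2 were upregulated, 1 was downregulated and 2 did not pass, where 24.5% and 23.6% of all tested rows were up- and downregulated, so these counts are no result about the group. Stard4, a soluble sterol carrier (chromosome 18, 33359009 to 33373516), measured 3.995, 4.22 and 3.72 FPKM in control and 16.6, 17.9 and 17.7 FPKM in TGF-β1-treated libraries. The ratio of means was 4.38, with no overlap (log2 change 1.89, SE 0.08, limma adjusted p = 2.36e-05). Mylip is the ubiquitin ligase that marks the low-density lipoprotein receptor for degradation (chromosome 13, 45485111 to 45507388). It measured 8.19, 6.80 and 10.3 FPKM in control and 2.42, 2.28 and 1.78 FPKM in treated libraries. It was the only one of the 36 tested genes that was downregulated, with every treated library below every control library (log2 change -1.57, SE 0.16, limma adjusted p = 0.000552).

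Soat1, which esterifies cholesterol for storage (chromosome 1, 158358239 to 158404459), measured 9.54, 9.43 and 9.23 FPKM in control and 11.1, 11.8 and 12.1 FPKM in treated libraries. The groups did not overlap, but the change was small (log2 change 0.28, SE 0.07, limma adjusted p = 0.0216), and the call was lost in 7 of 17 alternative settings, among them leaving out control replicate 2, TGF-β1 replicate 2 or TGF-β1 replicate 3 (adjusted p = 0.0594, 0.0554 and 0.0805). Npc1, the membrane protein that exports cholesterol from late endosomes (chromosome 18, 12348202 to 12394909), measured 8.57, 9.63 and 8.90 FPKM in control and 10.0, 12.4 and 11.6 FPKM in treated libraries. It narrowly missed the threshold without overlap (log2 change 0.29, 95% interval 0.05 to 0.54, limma adjusted p = 0.0537), and passed it without TGF-β1 replicate 1 (0.37, adjusted p = 0.0432) and with replicate 2 as a batch term (0.29, adjusted p = 0.0395). Npc2, its soluble partner, measured 129.7, 114 and 146 FPKM in control and 151, 119.6 and 143 FPKM in treated libraries. These groups overlapped (log2 change 0.09, 95% interval -0.23 to 0.41, limma adjusted p = 0.61).

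Neither LXR gene passed the test. Nr1h2, which encodes LXRβ (chromosome 7, 51804986 to 51809321), measured 45.1, 32.8 and 49.9 FPKM in control and 42.2, 26.1 and 40.7 FPKM in treated libraries. The lowest library of each group was its replicate 2, and the groups overlapped (log2 change -0.23, 95% interval -0.80 to 0.33, limma adjusted p = 0.443). Nr1h3, which encodes LXRα, was near the floor, at 0.257, 0.432 and 0.264 FPKM in control and 0.243, 0.0671 and 0 FPKM in treated libraries. It was under the mean of 1 FPKM required for testing, and in the fit without that filter its log2 change was -0.26 (SE 0.10, limma adjusted p = 0.106).

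All 9 fatty acid synthesis genes were upregulated, with a median log2 change of 1.17. Scd1, the stearoyl-CoA desaturase (chromosome 19, 44468941 to 44482199), measured 14.2, 13.0 and 13.1 FPKM in control and 67.5, 71.0 and 64.2 FPKM in TGF-β1-treated libraries. The ratio of means was 5.02, and the libraries of each group were close together (log2 change 2.24, SE 0.08, limma adjusted p = 1.13e-05). Scd2, its paralog next to it on chromosome 19 (44368166 to 44381354), measured 68.5, 72.2 and 58.1 FPKM in control and 225, 238 and 218 FPKM in treated libraries. It was the more abundant of the pair in both groups, per length, and its log2 change was 1.76 (SE 0.10; limma adjusted p = 6.36e-05).

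Per library, the log2 ratio of Scd1 to Scd2 was -2.19, -2.38 and -2.06 in control and -1.72, -1.73 and -1.74 in treated libraries, so the difference was 0.48 in favour of Scd1. The ratios of the treated libraries were all above those of the control libraries. These paralogs are similar in sequence, and how reads that fit both were counted is not given in the sources used here.

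Fads2, the delta-6 desaturase of polyunsaturated fatty acids (chromosome 19, 10138654 to 10175993), measured 32.5, 42.0 and 46.3 FPKM in control and 133, 125 and 125 FPKM in treated libraries, without overlap (log2 change 1.66, SE 0.14, limma adjusted p = 0.000221). Its neighbour Fads1, the delta-5 desaturase, changed by a log2 of 1.17. Acly, which makes cytosolic acetyl-CoA from citrate, reached a treated mean of 242 FPKM from 77.9 FPKM (log2 change 1.63), the highest treated mean of the 9. Elovl6, which elongates palmitate, changed by 0.82, and Acaca, the acetyl-CoA carboxylase that commits carbon to fatty acids, by 0.63, on a row that names an incomplete transcript of 889 bases.

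Fasn, the fatty acid synthase, rose less than the desaturases, from 89.5 ± 5.1 to 132 ± 22.5 FPKM (SD, n = 3; log2 change 0.54, limma adjusted p = 0.0199). Its lowest treated value, 106 FPKM, was in replicate 2, against 147 and 143 FPKM in replicates 1 and 3. The call was lost without control replicate 1, TGF-β1 replicate 1 or TGF-β1 replicate 3 (adjusted p = 0.0644, 0.0685 and 0.0676), and without TGF-β1 replicate 2 the log2 change was 0.69 (adjusted p = 0.00277). Rescaling to the sum of protein-coding rows also lost the Fasn call (log2 change 0.35, limma adjusted p = 0.083). Acss2, which makes acetyl-CoA from acetate, had a log2 change of 0.40 (limma adjusted p = 0.0359) that was lost in 8 of 17 alternative settings. Among these were control replicate 1, control replicate 3, TGF-β1 replicate 1 and TGF-β1 replicate 2 left out (adjusted p = 0.103, 0.0936, 0.0972 and 0.0944).

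TGF-β1 replicate 2 differed from its group in a way that went with base composition: over 10081 rows, the deviation of its log2 values from the group mean had a Spearman correlation of -0.394 with transcript GC content, where TGF-β1 replicates 1 and 3 had 0.272 and 0.32 and control replicates 1 to 3 had -0.0913, 0.00903 and 0.101. These rows share their libraries and are not independent. With a division at 55% GC, chosen after the values were seen, 6 of 8 tested genes of higher GC were lowest among the treated libraries in that one (Nr1h2, Scap, Srebf2, Fasn, Tm7sf2 and Fads2), Srebf1 was lowest in replicate 3 and Pmvk was highest in replicate 2. Fads2, at 55.84% GC, was lowest there only by 125.148 against 125.203 FPKM in TGF-β1 replicate 3. Of 24 tested genes of lower GC, 1 was lowest there (Npc2) and 18 were highest there. Mvk, also lowest there, had no GC value. The part of GC content in these values was not tested. Without that library the log2 change of Srebf2 was 0.97, that of Mvk 1.07 and that of Nr1h2 -0.02.

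**Figure D4:**
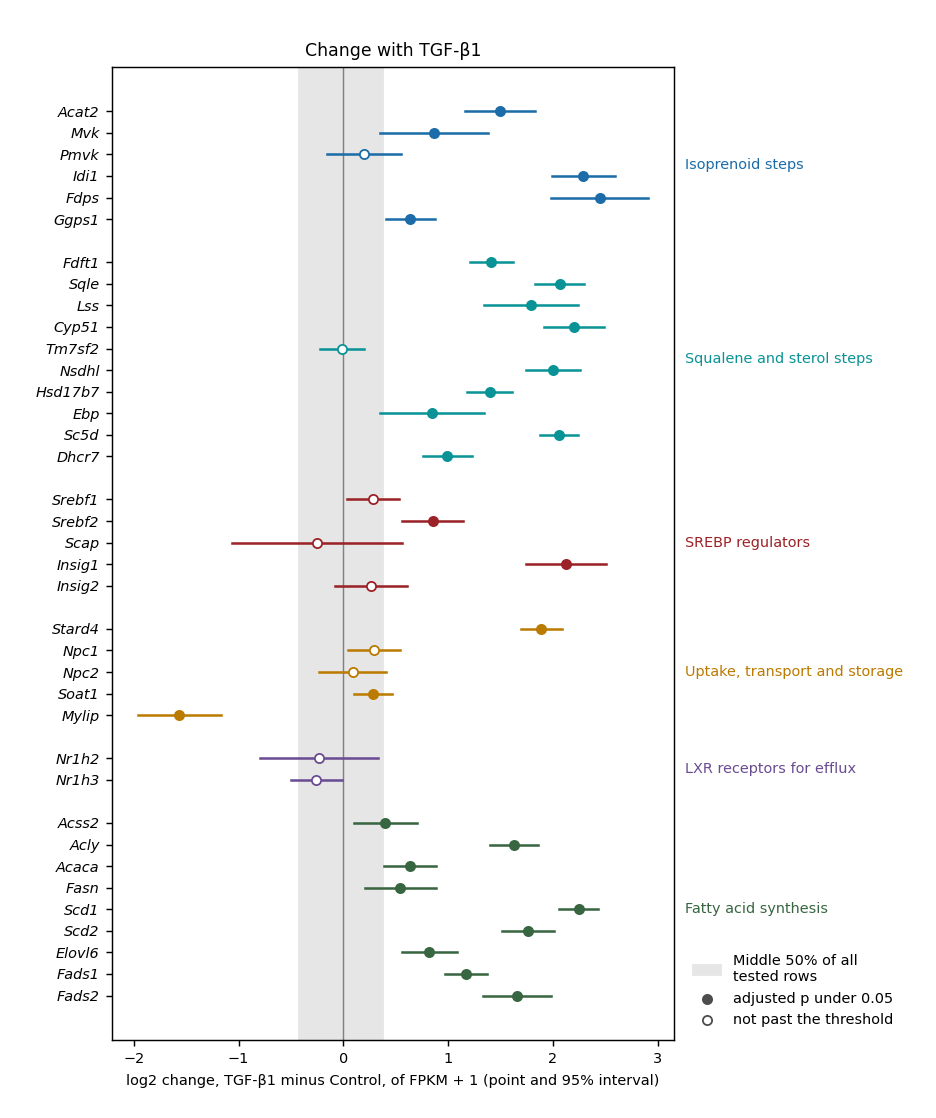
The log2 change, TGF-β1 minus control, of the 37 genes with 95% intervals, coloured by role, filled where the limma adjusted p was under 0.05; the grey band holds the middle 50% of all tested rows, from -0.42 to 0.38. Idi1, Fdps, Cyp51 and Scd1 lie furthest right and Mylip furthest left; the Nr1h3 value is from the fit without a filter.

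By role, the share of upregulated genes was 14 of 16 for sterol synthesis as a whole and 9 of 9 for fatty acid synthesis, against 24.5% of all tested rows, and lower for the regulators (2 of 5) and for uptake, transport and storage (2 of 5). The median log2 changes of the 4 groups, in that order, were 1.45, 1.17, 0.28 and 0.28. No test of the difference between roles was made, and the genes were chosen with earlier results of these data known.

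A further list of 31 genes of the same pathways gave 28 in the table, and Hmgcs1 and Mvd were not analysed here; Msmo1, a later symbol of Sc4mol, named that gene again. Of the 28, 22 passed the filter, with a median log2 change of 0.62. Of the 22, 16 were upregulated, 2 were downregulated and 4 did not pass. Across all tested rows, 24.5% were upregulated and 23.6% downregulated. Tmem97, a sterol-responsive membrane protein that binds NPC1, measured 8.73, 8.53 and 6.79 FPKM in control and 37.9, 41.7 and 39.2 FPKM in treated libraries, without overlap (log2 change 2.18, SE 0.11, limma adjusted p = 3.78e-05). Sc4mol, the sterol C4 methyl oxidase, rose by 2.06 on the log2 scale (SE 0.14; limma adjusted p = 0.000118).

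The 2 decreases on that list were in Abca1, a cholesterol exporter, and Lpcat3, a phospholipid-remodelling enzyme. The activity of the LXRs was not tested. Abca1 measured 13.4, 12.03 and 14.1 FPKM in control and 4.36, 4.72 and 3.63 FPKM in treated libraries, so that all treated libraries were below all control libraries (log2 change -1.44, SE 0.11, limma adjusted p = 0.00019). Lpcat3 measured 60.6, 69.7 and 67.7 FPKM in control and 39.5, 37.8 and 37.4 FPKM in treated libraries, again without overlap (log2 change -0.77, SE 0.08, limma adjusted p = 0.000579). The row of Lpcat3 names a transcript annotated for nonsense-mediated decay, and its locus overlaps Emg1 on the opposite strand. Mbtps1, a protease that cleaves SREBPs, Rnf139, a ubiquitin ligase of the endoplasmic reticulum, Nceh1, a cholesterol ester hydrolase, and Gpam, which starts glycerolipid synthesis, did not pass, with log2 changes of -0.19, 0.10, 0.09 and -0.14. The groups overlapped for Rnf139 and Nceh1. For Mbtps1 all treated libraries lay below all controls, and it passed as lower in 1 of 17 alternative settings (limma adjusted p = 0.0188). For Gpam they also lay below, but only by 2.5438 against 2.54431 FPKM.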

How the data were processed

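RNA sequencing libraries of mouse mesangial cells, 3 control and 3 TGF-β1-treated, were grouped by the treatment label. The authors removed low-quality reads, aligned the rest to mm9 (TopHat2 2.0.11 in the submitters' processing notes), and deposited FPKM from Cufflinks in 1 table; strand use, and whether rows are genes or transcripts, is not given in the sources used here. Counts were not used here, so log2(FPKM + 1) was fitted in limma 3.58.1 (R 4.3.3; trended moderated test, two-sided), over rows with mean FPKM of at least 1, with Benjamini-Hochberg adjustment over all 11898 such rows and a threshold of 0.05. A fold change on this scale understates the change of low genes. Paralog ratios were compared by exact permutation. Loci were read from the mm9 GENCODE annotation and promoters from RefSeq tables (GRCm38.p6).

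The 37 genes and all lists were chosen with earlier results of these data known. Values in every library were printed for the regulators, the 3 largest changes in each larger role group, all genes of smaller groups and all genes that did not pass. Of the further pathway genes, the text names the largest called changes, up to 3 in each direction, except 1 that is not reported here, and those that did not pass. Lbr, the GC division and the looser motif spellings were chosen after values were seen. Alternatives were other pseudocounts, filters, scalings, variance trend, a replicate block, a batch term for replicate 2, replicates 1 and 3 alone, and leaving out each library.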

Additional observations from a re-analysis of the deposited data

How the results depend on the processing

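Over 17 alternative settings, 23 of the 28 called genes kept their call in each, 5 lost it in at least 1 (Mvk, Ebp, Soat1, Acss2 and Fasn), and 2 of the 8 uncalled ones passed in at least 1 (Srebf1 and Npc1). No called gene changed direction. The count of upregulated uptake, transport and storage genes, 2 as reported, was 1 with rescaling to the upper quartile, with rescaling to the sum of protein-coding rows and with replicates 1 and 3 alone, through Soat1, and 1 to 3 when single libraries were left out. For fatty acid synthesis, 9 as reported, the count was 7 with rescaling to the sum of protein-coding rows. It was 8 with rescaling to the upper quartile and with replicates 1 and 3 alone, and 7 to 9 when single libraries were left out.

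Leaving out single libraries gave 24 to 27 upregulated genes of the 36, with 1 downregulated throughout, 14 to 15 upregulated of the further pathway genes, 2273 to 2804 upregulated and 2146 to 2642 downregulated rows, and ratio differences of 1.68 to 1.99 (Insig1 to Insig2), -0.68 to -0.45 (Srebf1 to Srebf2) and 0.40 to 0.56 (Scd1 to Scd2). With 3 libraries a group, paralog ratios cannot pass the threshold.

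With the replicate number as a block, 26 of the 36 genes were upregulated and 1 downregulated, 1 uptake, transport and storage gene was upregulated, and 2728 rows were up and 2663 down. Deviations of same-numbered libraries correlated at 0.0921, 0.232 and 0.0853, the largest for replicate 2. Those of differently numbered libraries correlated at -0.194 to 0.117. The main fit did not take the numbers as pairs, and the fit with the block did.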
